A study of Mus musculus with 8 samples.

Results

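Glucocorticoid-responsive genes of the liver were described here in 8 livers of db/db mice, which lack a working leptin receptor and become obese and diabetic. The 10 genes were taken by symbol: the metallothioneins Mt1 and Mt2, the glucocorticoid-induced genes Fkbp5, Tsc22d3, Tat, Sgk1, Lpin1 and Zbtb16, the steroid reductase Hsd11b1 and the plasma carrier Serpina6. The rule uses no measured value, but the genes were picked with earlier results of these data known. All 10 were among the 41388 features counted in each library, and all 10 were among the 12270 genes tested.

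Littermate db/db mice (strain label C57B/6J) were randomised at 5 weeks of age and received an adenovirus through the tail vein. The control group, AdGFP, received the virus carrying green fluorescent protein and has the genotype label "control". The AdNAMPT group received the virus carrying nicotinamide phosphoribosyltransferase, an enzyme of NAD salvage, and has the genotype label "NAMPT overexpression". Both groups therefore carried the leptin receptor defect and an adenovirus, no group without virus was analysed here, and all 8 livers carry the age label of 10 weeks. Each group held 4 livers, whose titles number the mice from 1 to 4, and the study's figure legend gives 4 mice per group for this sequencing. Nothing further says how the animals were kept apart. The p-values set the difference between the groups against the spread between livers within the groups, for these 8 samples. The study's methods state that males were used. Time of day and feeding state at sampling are not given in the sources used here.

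Total counts per library ran from 12006713 to 19879814, so 3 counts corresponded to between 0.151 and 0.250 CPM (counts scaled to the library total, as deposited). Nampt, the gene delivered, stood at 102 to 153 CPM in the AdGFP livers and at 120 to 178 CPM in the libraries labelled AdNAMPT. These ranges overlapped, and reads from the virus and from the mouse gene were not separated. Summed CPM of 8 hepatocyte markers lay between 99377 and 124464 in all 8 livers. AdNAMPT 1 stood apart from the other 7 livers in genes that differ between male and female mouse liver. Its summed CPM of male-biased genes was 3623, against 761 to 1081 in the others, and its sum of female-biased genes was 405, against 1341 to 1754. Estimates that AdNAMPT 1 decides are given also without it. Counts from Gm42418, a gene that holds ribosomal RNA sequence, took 0.996% to 2.25% of counts in AdGFP and 0.200% to 0.233% in AdNAMPT.

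Glucocorticoids are steroid hormones of the adrenal cortex, corticosterone being the main one in mice. They enter the hepatocyte, bind the glucocorticoid receptor (Nr3c1), which is held ready by heat shock chaperones, and the bound receptor moves to the nucleus and acts at glucocorticoid response elements. In the liver the hormone is known for inducing enzymes of amino acid breakdown and glucose production, and for inducing proteins that hold the hormone signal in check. Circulating corticosterone is known to be high in db/db mice and to follow a daily rhythm. Metallothioneins respond to glucocorticoids and also to zinc and cadmium, through the metal-responsive factor Mtf1.

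None of the 10 genes passed the test between the groups. By limma's voom with sample weights, fitted across all 12270 genes, 0 of the 10 reached a Benjamini-Hochberg adjusted p of 0.05, where 0.277% of all tested genes did, 0.0163% with higher and 0.261% with lower levels in AdNAMPT. DESeq2 also called 0 of 10, where it called 0.611% of tested genes, and so did the quasi-likelihood and exact tests of edgeR, where they called 0.269% and 0.538%. At an unadjusted p under 0.05 each of the 4 methods gave 1 of 10, Tat, lower in AdNAMPT, beside 9.69% of all tested genes by limma, 8.0% by the quasi-likelihood test, 6.76% by the exact test and 6.85% by DESeq2. By limma 5.04% of tested genes were lower in AdNAMPT at that threshold. The values of the 2 groups overlapped for all 10 genes, while 4.79% of tested genes had groups that did not overlap, 2.7% with AdNAMPT below. Estimates were above 0 for 4 genes and below 0 for 6. Their median log2 fold change, AdNAMPT over AdGFP, was −0.03, beside 0.00 over all tested genes.

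**Figure D1:**
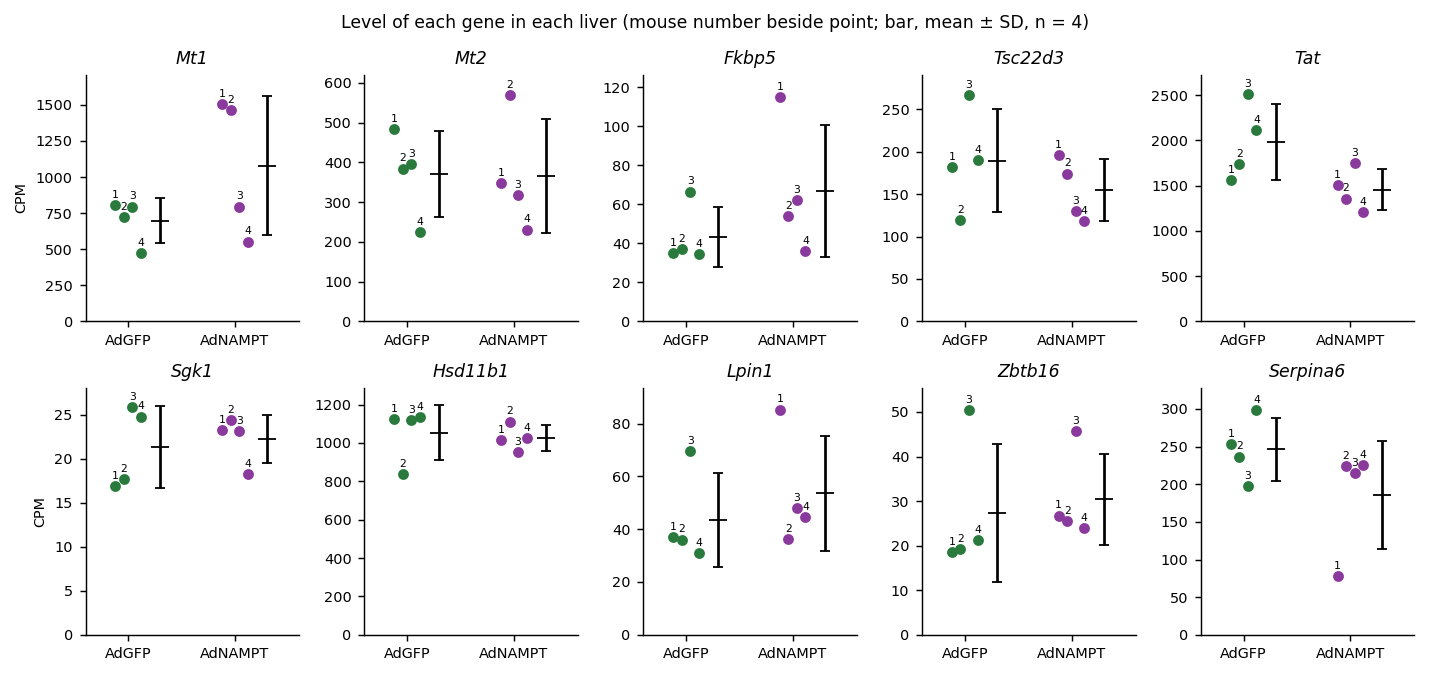
CPM of each of the 10 genes (vertical axis, from 0) in each liver, AdGFP in green and AdNAMPT in purple, with the mouse number beside each point and bars at the mean ± SD (n = 4). The groups overlap in all 10 panels, and single livers stand far from their group, such as AdNAMPT 1 for Fkbp5 at 115 CPM and for Serpina6 at 78.4 CPM.

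Levels per length are compared between genes as RPKM, which divides CPM by the exonic length in kilobases. Over the 8 livers Mt1 had the highest mean at 1646 RPKM (range 873 to 2788). Tat followed at 715 RPKM (503 to 1043) and Mt2 at 664 RPKM (403 to 1023). Hsd11b1 stood at 384 RPKM (309.6 to 419), Serpina6 at 123 RPKM (44.5 to 169.5) and Tsc22d3 at 39.6 RPKM (27.2 to 61.5). In this order the range of each gene overlapped that of the next, except that Hsd11b1 was above Serpina6 and Tsc22d3 above Fkbp5 in every liver. The overlap of Serpina6 with Tsc22d3 came from AdNAMPT 1 alone. The lowest 4 were Fkbp5 at 8.65 RPKM, Lpin1 at 8.47, Zbtb16 at 5.66 and Sgk1 at 4.44.

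Mt1 and Mt2 encode the small cysteine-rich proteins that bind zinc and copper, and they lie next to each other on chromosome 8 (GRCm38, forward strand): Mt2 from 94172618 to 94173567 and Mt1 from 94179089 to 94180325, both protein coding with no overlapping exon of another feature. Their starts are 6471 bases apart. The 250 bases before each annotated start are shown because metal response elements near these starts are the best known regulatory sites of the pair. Capitals mark matches, on either strand, to TGCACNC or TGCGCNC, the letters of the metal response element core, in RefSeq sequence (GRCm38.p6, forward strand).
Mt2, chr8:94172368-94172617: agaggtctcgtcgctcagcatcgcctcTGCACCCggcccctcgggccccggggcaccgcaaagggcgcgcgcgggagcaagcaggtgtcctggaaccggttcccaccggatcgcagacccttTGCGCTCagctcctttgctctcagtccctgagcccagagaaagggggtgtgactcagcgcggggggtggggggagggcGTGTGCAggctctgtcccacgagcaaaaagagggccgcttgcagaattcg
Mt1, chr8:94178839-94179088: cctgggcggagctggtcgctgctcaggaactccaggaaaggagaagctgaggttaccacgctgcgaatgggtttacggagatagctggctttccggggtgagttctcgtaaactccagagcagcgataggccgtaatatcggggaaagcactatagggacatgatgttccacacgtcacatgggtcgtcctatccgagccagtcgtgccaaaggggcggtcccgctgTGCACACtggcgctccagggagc

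The Mt2 window held 3 matches, at 223 to 217, 128 to 122 and 50 to 44 bases before the start. The Mt1 window held 1 match, at 23 to 17 bases before the start. Of 32851 RefSeq windows of this length, 10.4% held TGCACNC and 12.5% held TGCGCNC. Among the windows of the 10 genes, TGCACNC also matched before Hsd11b1, at 237 to 231 bases before the start. Sequence after the annotated start was not searched, so the count of matches in these windows is no count for the gene. A match is a run of letters and not a measured binding site.

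Mt1 stood at 803, 723, 796 and 472 CPM in AdGFP 1 to 4 and at 1506, 1464, 794 and 553 CPM in AdNAMPT 1 to 4. AdNAMPT 1 and AdNAMPT 2 were above every AdGFP liver, while AdNAMPT 3 and AdNAMPT 4 lay within the AdGFP range. The group means were 698 ± 155 and 1079 ± 479 CPM (SD, n = 4), which gives an estimate of 0.47 ± 0.29 on the log2 scale (AdNAMPT over AdGFP, SE by limma, adjusted p = 0.647). Without AdNAMPT 1 the estimate was 0.24 and without AdNAMPT 2 it was 0.08 (adjusted p = 0.838 and 0.946), and without AdNAMPT 4 it was 0.86 (unadjusted p = 0.00504, adjusted p = 0.290).

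Mt2 stood at 483, 384, 395 and 224 CPM in AdGFP 1 to 4 and at 349, 569, 318 and 231 CPM in AdNAMPT 1 to 4. AdNAMPT 2 was the highest of the 8 livers, and mouse 4 was the lowest of its group on both sides. The estimate was −0.01 ± 0.30 (SE, limma, adjusted p = 0.993), with a 95% confidence interval of −0.67 to 0.64 that holds changes of either direction. The sign of the estimate turned with scaling to library size alone, at 0.080, and without each of 4 livers.

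The neighbours were then compared across livers. Their log2 levels correlated with r = 0.69 (two-sided exact permutation p = 0.0548 over 40320 pairings, adjusted p = 0.143 over 10 relations, n = 8) and rho = 0.81 (exact permutation p = 0.0218, adjusted p = 0.109). After each value was set against its group mean, r was 0.85 (permutation, adjusted p = 0.0425). That permutation exchanged deviations across both groups and took no account of the fitted group means, so its p is approximate. Over the 7 livers without AdNAMPT 1, r was 0.90 (exact permutation, adjusted p = 0.00794, n = 7). Without AdNAMPT 2 it was 0.55 (exact permutation, adjusted p = 0.446, n = 7) and without AdGFP 4 it was 0.57 (exact permutation, adjusted p = 0.372, n = 7), and the relation passed in 1 of the 8 such cases. With AdNAMPT 1 and AdNAMPT 2 left out, the livers farthest from the median of Mt1, r was 0.91.

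Reads of Mt1 per read of Mt2 were 1.66, 1.88, 2.01 and 2.10 in AdGFP 1 to 4 and 4.31, 2.58, 2.50 and 2.39 in AdNAMPT 1 to 4. Every AdNAMPT liver was above every AdGFP liver. The group means were 1.92 ± 0.19 and 2.95 ± 0.92 reads of Mt1 per read of Mt2 (SD, n = 4). Without AdNAMPT 1 the AdNAMPT mean was 2.49 ± 0.09 (SD, n = 3). This ratio was chosen for display after the values of both genes were seen, so it is given without a test. The lower Gm42418 share of the AdNAMPT libraries moves with the same grouping, and its part in the ratio was not tested.

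**Figure D2:**
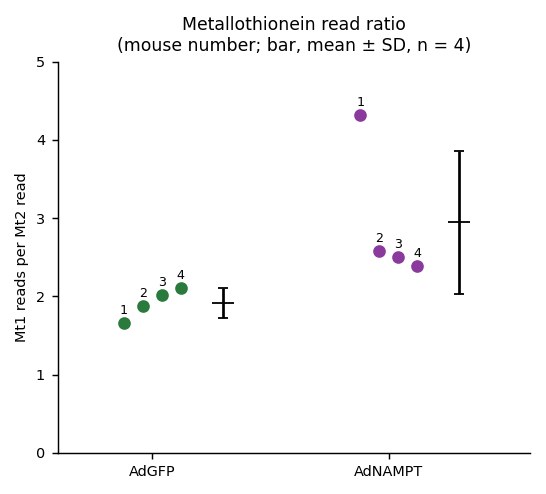
Counts of Mt1 per count of Mt2 (vertical axis, from 0) in each liver, with the mouse number beside each point and bars at the mean ± SD (n = 4). The AdGFP livers sit between 1.66 and 2.10 and the AdNAMPT livers between 2.39 and 4.31, with AdNAMPT 1 far above the rest of its group.

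Other genes of the metal response gave no call. Of 12 listed genes, 10 were tested, and Mt3 and Mt4, the metallothioneins of brain and of stratified epithelia, had 0 counts in at least 1 library and were not tested. By limma 0 of 10 passed the adjusted test and 0 of 10 had an unadjusted p under 0.05, with estimates above 0 for 3 and a median log2 fold change of −0.05 against 0.00 over all tested genes. The smallest p was that of Gclc, the catalytic subunit of the enzyme that limits glutathione synthesis, at −0.17 (adjusted p = 0.563). Slc39a4, a zinc importer of the gut, was next at 0.15 (adjusted p = 0.650). Summed CPM of the list was 822 to 864 in AdGFP and 832 to 909.6 in AdNAMPT.

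Fkbp5 encodes an Hsp90 co-chaperone that lowers the hormone affinity of the receptor and is among the most used readouts of glucocorticoid action (chromosome 17, 28399095 to 28517524). It stood at 35.1, 37.1, 66.5 and 34.6 CPM in AdGFP 1 to 4 and at 115, 53.9, 62.2 and 36.1 CPM in AdNAMPT 1 to 4. AdNAMPT 1 was the highest of the 8, AdGFP 3 was next, and the remaining AdGFP livers lay close together at the bottom with AdNAMPT 4. The estimate was 0.30 ± 0.27 (SE, limma, adjusted p = 0.764). It stayed above 0 under all 19 alternatives, from 0.13 without AdNAMPT 1 to 0.55 without AdGFP 3, and passed the adjusted test in none of them.

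Tsc22d3 encodes the glucocorticoid-induced leucine zipper, a mediator of the hormone's anti-inflammatory action (chromosome X, 140539528 to 140600659). Its CPM values were 182, 119, 267 and 189.7 in AdGFP 1 to 4 and 196, 174, 129.6 and 118 in AdNAMPT 1 to 4. AdGFP 3 was the highest and AdNAMPT 4 the lowest, with AdGFP 2 beside it. The estimate was −0.44 ± 0.21 (SE, limma, unadjusted p = 0.0569, adjusted p = 0.534), and it lay between −0.62 and −0.26 when single livers were left out. Without AdGFP 2 the groups did not overlap after TMM scaling, as in 8.96% of tested genes, though they did on the CPM printed here, and the adjusted p was 0.334 by limma.

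Tat encodes tyrosine aminotransferase, the enzyme that opens tyrosine breakdown and a classical hormone-induced gene of the hepatocyte (chromosome 8, 109990437 to 109999803). Its CPM values were 1565, 1738, 2509 and 2117 in AdGFP 1 to 4 and 1510.5, 1358, 1749 and 1210.3 in AdNAMPT 1 to 4. AdGFP 3 and AdGFP 4 were above every AdNAMPT liver, AdGFP 1 and AdGFP 2 were not, and AdNAMPT 3 was above both of these. The means were 1982 ± 420.0 and 1457 ± 230.2 CPM (SD, n = 4).

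Tat had the smallest p of the 10 genes and ranked 148 of 12270 tested genes. Its estimate was −0.56 ± 0.15 on the log2 scale (SE, limma, 95% CI −0.90 to −0.22, unadjusted p = 0.00383, adjusted p = 0.318), which is a level of 0.678 times AdGFP (95% CI 0.536 to 0.857). DESeq2 gave the lowest adjusted p, 0.0595, edgeR's exact test gave 0.238 and its quasi-likelihood test gave 0.446, and over all 19 alternatives the adjusted p ran from 0.0595 to 0.588. The estimate was below 0 in all 19, from −0.68 without AdGFP 1 to −0.45 without AdGFP 3. After TMM scaling the groups ceased to overlap without AdGFP 1, where 7.41% of tested genes had groups apart, and without AdNAMPT 3, where 7.91% had.

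Sgk1 encodes a kinase of salt and glucose handling that glucocorticoids and mineralocorticoids induce (chromosome 10, 21882184 to 21999903). A window before 1 of its RefSeq starts is shown because it holds the full 15-letter palindrome of the glucocorticoid response element, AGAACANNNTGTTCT, in capitals (GRCm38.p6, forward strand).
Sgk1, chr10:21993640-21993889: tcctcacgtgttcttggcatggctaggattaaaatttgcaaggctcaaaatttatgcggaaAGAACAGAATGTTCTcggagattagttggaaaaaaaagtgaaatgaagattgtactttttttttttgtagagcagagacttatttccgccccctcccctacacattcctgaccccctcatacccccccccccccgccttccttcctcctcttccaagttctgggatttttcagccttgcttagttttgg

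This palindrome was found, on either strand, in 3 of 32851 windows (0.00913%), and among the 8 genes of the 10 with RefSeq windows, 15 windows in all, only in this Sgk1 window, at 189 to 175 bases before the start. The hexamer AGAACA, which the palindrome contains, was found in 16.1% of windows and in windows of Tsc22d3, Sgk1 and Lpin1. Such a match describes the letters and no binding was measured. Its absence from a window says only that these letters are not there.

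The highest liver had 1.53 times the Sgk1 CPM of the lowest. Sgk1 stood at 16.9, 17.7, 25.9 and 24.8 CPM in AdGFP 1 to 4 and at 23.2, 24.4, 23.1 and 18.3 CPM in AdNAMPT 1 to 4. The AdGFP livers formed a low pair and a high pair that enclosed all AdNAMPT values. The estimate was −0.04 ± 0.15 (SE, limma, 95% CI −0.37 to 0.30, adjusted p = 0.963).

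Lpin1 encodes a phosphatidate phosphatase that also acts as a coactivator of fatty acid oxidation genes and is raised by glucocorticoids and fasting (chromosome 12, 16535669 to 16589770). It stood at 37.0, 36.1, 69.7 and 31.0 CPM in AdGFP 1 to 4 and at 85.3, 36.2, 48.0 and 44.7 CPM in AdNAMPT 1 to 4. AdNAMPT 1 and AdGFP 3 stood above the other 6 livers. The estimate was 0.02 ± 0.26 (SE, limma, 95% CI −0.55 to 0.60, adjusted p = 0.986), and its sign turned without each of 5 livers, AdNAMPT 1 among them at −0.05.

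Zbtb16 encodes PLZF, a zinc finger repressor that is among the genes most raised by glucocorticoids in many tissues (chromosome 9, 48654311 to 48835945). Its CPM values were 18.5, 19.2, 50.4 and 21.3 in AdGFP 1 to 4 and 26.7, 25.5, 45.6 and 23.9 in AdNAMPT 1 to 4. Mouse 3 stood apart in each group, and the other 3 AdNAMPT livers were above the other 3 AdGFP livers. The estimate was 0.11 ± 0.32 (SE, limma, adjusted p = 0.947). Without AdGFP 3 it was 0.48 (adjusted p = 0.529) and the groups no longer overlapped, as in 8.12% of tested genes, and without AdNAMPT 3 it was −0.10.

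Hsd11b1 encodes the reductase that regenerates active hormone inside the cell from its inert keto form (chromosome 1, 193221630 to 193264054). It was the steadiest of the 10, at 1123, 839, 1117 and 1134 CPM in AdGFP 1 to 4 and at 1015, 1111, 951 and 1027 CPM in AdNAMPT 1 to 4. AdGFP 2 was the lowest of the 8 and the other AdGFP livers were above all AdNAMPT livers. The estimate was −0.14 ± 0.10 (SE, limma, adjusted p = 0.708). It was below 0 under all 19 alternatives, and without AdGFP 2 the groups did not overlap, as in 8.96% of tested genes, with an adjusted p of 0.461 by limma.

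Serpina6 encodes corticosteroid-binding globulin, which the liver secretes and which carries most corticosterone in plasma (chromosome 12, 103646630 to 103657212). It stood at 254, 237, 198 and 299 CPM in AdGFP 1 to 4 and at 78.4, 224, 215 and 225 CPM in AdNAMPT 1 to 4. AdNAMPT 1 was far below the other 7 livers, whose ranges overlapped between the groups through AdGFP 3. The estimate was −0.43 ± 0.24 (SE, limma, unadjusted p = 0.0925, adjusted p = 0.604). Without AdNAMPT 1 it was −0.25 (adjusted p = 0.540 by limma), without AdGFP 3 it was −0.56 (adjusted p = 0.551) and the groups did not overlap, as in 8.12% of tested genes. Voom without sample weights, which gives AdNAMPT 1 the same weight as the others, gave −0.63 (adjusted p = 0.664).

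**Figure D3:**
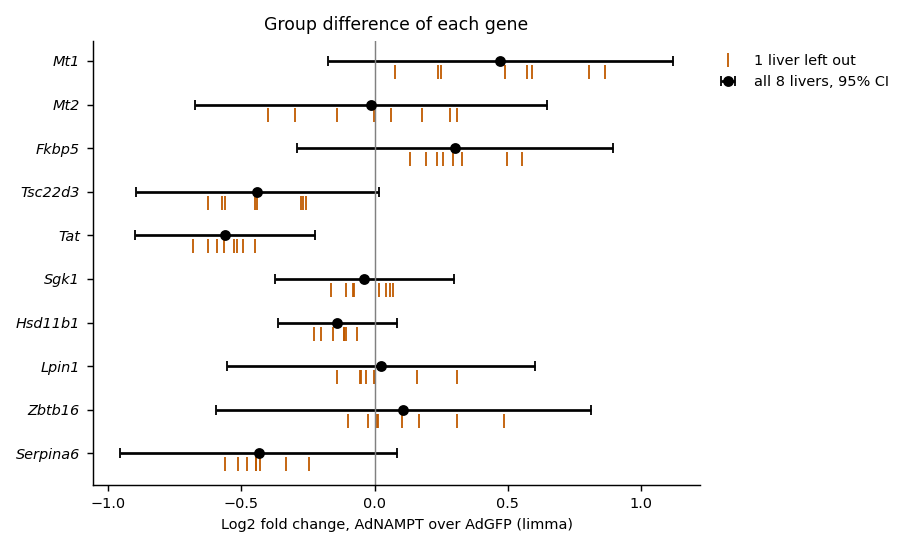
Log2 fold change of each gene, AdNAMPT over AdGFP, by limma (horizontal axis), with points and 95% confidence intervals for all 8 livers and orange ticks for the 8 fits that each leave out 1 liver. Only the interval of Tat excludes 0, and the ticks of Mt2, Sgk1, Lpin1 and Zbtb16 fall on both sides of 0.

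The livers of 1 group differed more in these genes than in most genes. The SD of log2 levels within groups was 0.57 for Fkbp5 and for Serpina6, 0.56 for Mt1 and for Zbtb16, 0.51 for Mt2 and for Lpin1, 0.40 for Tsc22d3, 0.25 for Tat and for Sgk1 and 0.15 for Hsd11b1. The median of the 10 was 0.51, and over all 12270 tested genes the median was 0.18 and the upper quartile 0.28. Of the 10 genes, 9 were above that median and 7 above that quartile. Fkbp5 had a larger spread than all but 4.34% of tested genes. Without AdNAMPT 1, a setting chosen after seeing the data, the SD was 0.42 for Fkbp5, 0.41 for Lpin1 and 0.19 for Serpina6.

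The high and low livers were not the same for every gene. AdGFP 3 was the highest of the 8 for Tsc22d3, Tat, Sgk1 and Zbtb16 and above the median of the 8 in 9 of the 10 genes, Serpina6 being the exception. AdNAMPT 1 was the highest for Fkbp5 and Lpin1, at 1.25 and 0.98 log2 units above the median of the 8, and the lowest for Serpina6, at 1.56 below it. AdGFP 4 was the lowest for Mt1, Mt2, Fkbp5 and Lpin1 on the CPM scale, and the highest for Serpina6 and Hsd11b1. AdNAMPT 4 was the lowest for Tsc22d3 and Tat and was below the median of the 8 in 8 of the 10 genes. AdGFP 3 had 0.996% of counts from Gm42418, the lowest share of its group, and AdNAMPT 4 had 0.233%, the highest of its group. The shares in AdNAMPT were close together, the lowest being 0.200%. Features annotated as ribosomal RNA took 1.77% in AdGFP 3 and 0.863% in AdNAMPT 4, each the lowest share of its group. The part of these shares in the levels of the 10 genes was not tested.

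**Figure D4:**
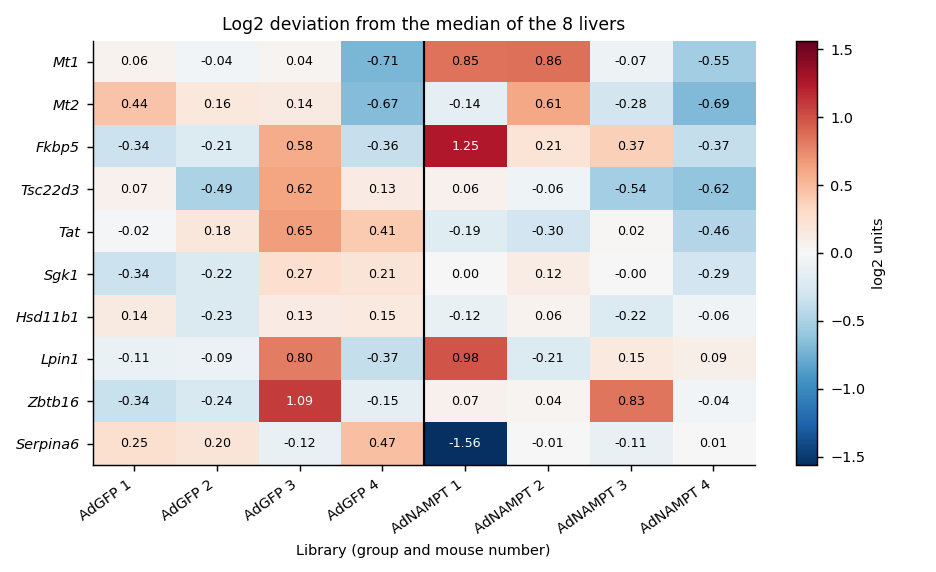
Log2 deviation of each gene (rows) in each liver (columns) from the median of the 8 livers, after TMM scaling, with the value printed in each cell, red above and blue below the median, and a line between the groups. AdGFP 3 is above the median in 9 of 10 genes, and AdNAMPT 1 holds both the highest value, 1.25 for Fkbp5, and the lowest, −1.56 for Serpina6.

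Fkbp5 was set against each of the other 9 genes across the 8 livers, and Mt1 against Mt2, which makes 10 relations. For Fkbp5, 2 of its 9 relations passed an adjusted p of 0.05 by Pearson's r and none by Spearman's rho. Serpina6 was lower where Fkbp5 was higher, with r = −0.89 (two-sided exact permutation p = 0.00141, adjusted p = 0.0141, n = 8) and rho = −0.86 (exact permutation p = 0.0107, adjusted p = 0.107). Within the groups r was −0.91 over the 4 AdGFP livers and −0.90 over the 4 AdNAMPT livers. On deviations from the group means it was −0.87 (permutation across both groups, approximate adjusted p = 0.0425). With AdGFP 3 and AdNAMPT 1 left out, the livers farthest from the median of Fkbp5, r was −0.71. Without AdNAMPT 1 alone r was −0.77 and the adjusted p 0.121 (exact permutation, n = 7), and without AdGFP 3 alone it was −0.93 with an adjusted p of 0.0615 (exact permutation, n = 7).

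Lpin1 was higher where Fkbp5 was higher, with r = 0.86 (two-sided exact permutation p = 0.00677, adjusted p = 0.0339, n = 8) and rho = 0.69 (exact permutation p = 0.0694, adjusted p = 0.173). On deviations from the group means r was 0.86 as well. Without AdGFP 3 and AdNAMPT 1 it was 0.33, so the relation rests on these livers. When single livers were left out, r lay between 0.70, without AdNAMPT 1, and 0.92, and the adjusted p passed in 2 of 8 cases.

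The remaining 7 relations of Fkbp5 had adjusted p-values of 0.143 or more by the exact permutation test. Fkbp5 and Zbtb16 had r = 0.52 over the 8 livers, 0.98 over the 4 AdGFP livers and 0.11 over the 4 AdNAMPT livers. Without AdNAMPT 1, where Fkbp5 was highest and Zbtb16 was not, r was 0.91 (exact permutation, adjusted p = 0.0179, n = 7). With any other single liver left out the relation did not pass (exact permutation, adjusted p from 0.361 to 0.543). Fkbp5 and Mt1 had r = 0.71 (exact permutation p = 0.0571, adjusted p = 0.143). For Sgk1, Tsc22d3, Mt2, Tat and Hsd11b1 r was 0.45, 0.35, 0.16, 0.02 and −0.24. On deviations from the group means the same values were 0.51, 0.68, 0.25, 0.60 and −0.07, that of Tat having moved most. The male-biased sum of AdNAMPT 1, which was 3623 CPM, moves with the Fkbp5 and Serpina6 values of that liver, and its part in these relations was not tested.

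**Figure D5:**
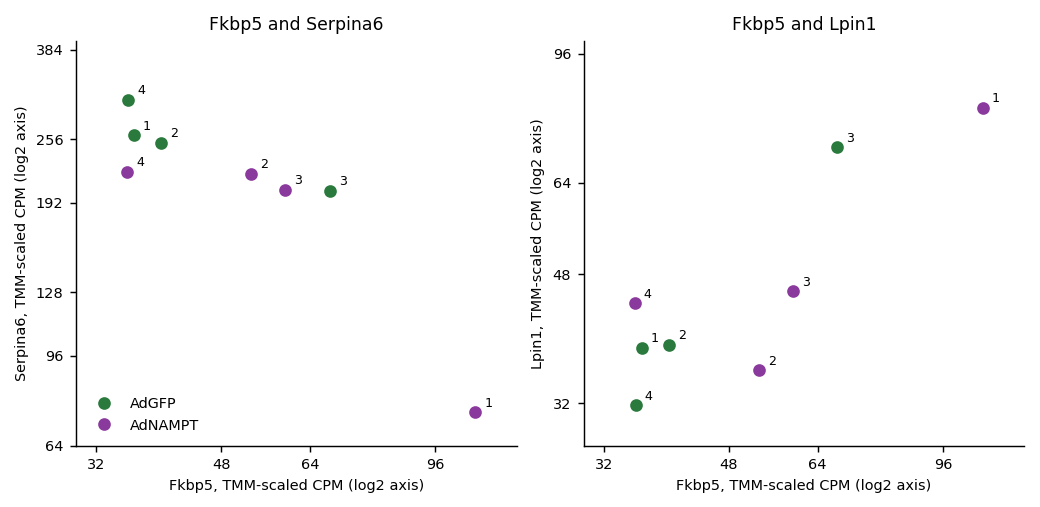
TMM-scaled CPM of Fkbp5 (horizontal, log2 axis) against Serpina6 (left) and Lpin1 (right; vertical, log2 axes) in the 8 livers, with mouse numbers, AdGFP green and AdNAMPT purple. AdNAMPT 1 is at the far end of both plots, and with AdGFP 3 also left out r was −0.71 for Serpina6 and 0.33 for Lpin1.

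The tested genes outside the 10 whose log2 levels ran most like Fkbp5 over the 8 livers, of 12260 compared, were Tbc1d8 (r = 0.98), Edem2 (r = 0.96) and Fastkd1 (r = 0.96). Tbc1d8, a Rab GTPase-activating protein, was highest in AdNAMPT 1 at 22.1 CPM, while the remaining 7 livers had 9.65 to 14.5 CPM. Those most like the sum of Mt1 and Mt2 were Lcorl (r = 0.94), Tgfbr1 (r = 0.93) and Ythdc1 (r = 0.93). Their ranges were narrow, as for Lcorl at 12.9 to 18.5 CPM. These are the extremes of many comparisons and describe these livers.

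The receptor and its chaperones gave no call. Of 19 listed genes all 19 were tested, and 0 passed the adjusted test by limma, 0 by DESeq2 and by either edgeR test. By limma 5 had an unadjusted p under 0.05, all with estimates below 0. Over all tested genes 5.04% were lower at that threshold and 9.69% differed in either direction, shares that also stand beside the lists below. The median log2 fold change was −0.12 against 0.00 over all tested genes. Nr3c1 stood at 99.2, 102, 98.5 and 99.3 CPM in AdGFP 1 to 4 and at 85.7, 93.5, 103 and 95.5 CPM in AdNAMPT 1 to 4. AdNAMPT 3 was the highest and AdNAMPT 1 the lowest, and the estimate was −0.15 ± 0.07 (SE, limma, adjusted p = 0.497). The smallest p-values were those of Stip1, which joins Hsp70 to Hsp90, at −0.20 (adjusted p = 0.416), and of Fkbp4, the co-chaperone that aids receptor transport, at −0.22 (adjusted p = 0.492).

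Steroid handling genes were also without a call. Of 13 listed, 11 were tested, 0 passed the adjusted test, and 1 was higher and 2 lower at an unadjusted p under 0.05 by limma. Hsd11b2, the oxidase that inactivates the hormone in kidney, was at 0 counts in at least 1 library and was not tested. H6pd, which supplies the cofactor of Hsd11b1 in the endoplasmic reticulum, stood at 397, 333, 344 and 382 CPM in AdGFP 1 to 4 and at 387, 334, 383 and 382 CPM in AdNAMPT 1 to 4. Its estimate was −0.11 ± 0.08 (SE, limma, adjusted p = 0.726). Akr1c6, a hydroxysteroid dehydrogenase of mouse liver, had the smallest p at −0.42 (adjusted p = 0.441), and Srd5a3 was next at 0.36 (adjusted p = 0.464).

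Other genes that glucocorticoids induce in liver were counted from a list of 28, of which 27 were tested. By limma 0 passed the adjusted test, 1 was higher and 2 were lower at an unadjusted p under 0.05, and estimates were below 0 for 21 of 27, with a median of −0.17 against 0.00 over all tested genes. Such a lean was not particular to this list. Estimates were below 0 for 9 of 11 steroid handling genes, 15 of 21 acute phase genes and 6 of 8 hepatocyte markers, with medians of −0.22, −0.16 and −0.10. Other lists did not lean this way, with 4 of 8 endothelial markers and 2 of 12 male-biased genes below 0. Pck1, the gluconeogenic enzyme that makes phosphoenolpyruvate, stood at 3479, 2608, 4242 and 3694 CPM in AdGFP 1 to 4 and at 4212, 2766, 2755 and 2033 CPM in AdNAMPT 1 to 4. As for Tat, AdGFP 3 was the highest liver and AdNAMPT 4 the lowest, and the estimate was −0.49 ± 0.17 (SE, limma, unadjusted p = 0.0145, adjusted p = 0.425). Nfkbia, the inhibitor of NF-κB, was next at −0.27 (adjusted p = 0.492).

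Acute phase genes, which glucocorticoids and cytokines induce together, had 21 of 21 genes tested, 0 called and 3 lower at an unadjusted p under 0.05 by limma. Crp was at −0.41 (adjusted p = 0.211) by limma and at −0.41 by DESeq2, whose adjusted p of 0.0330 passed, and Saa4 was at −0.37 (adjusted p = 0.290). Of 21 clock genes 20 were tested, with 0 called and 2 in each direction at an unadjusted p under 0.05. Nr1d2, a repressor of the clock, was at −0.29 (adjusted p = 0.312) and Per2, a clock gene that glucocorticoids also induce, at 0.27 (adjusted p = 0.430). The 24 listed paralogs of the 10 genes had 21 tested and 0 called, with estimates below 0 for 14 and a median of −0.11. By limma 2 were higher and 3 lower at an unadjusted p under 0.05. Those of smallest p were both higher, Serpina11 at 0.38 (adjusted p = 0.428) and Lpin3 at 0.30 (adjusted p = 0.453).

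The sex-biased lists were counted because AdNAMPT 1 stood apart in them. Of 14 female-biased genes 13 were tested, 0 were called, and the median was −0.33, with Sult1e1 at −0.69 (adjusted p = 0.331) and Cux2 at 1.25 (adjusted p = 0.357). Of 14 male-biased genes 12 were tested, 0 were called, and the median was 0.11. Mup20 was at 0.74 (adjusted p = 0.559) and was at 823 CPM in AdNAMPT 1, while the remaining 7 livers had 69.4 to 171 CPM, and Elovl3 was at 0.53 (adjusted p = 0.674). The estimates and medians of both lists are given only with AdNAMPT 1 included. Female-biased sums were 1426 to 1696 CPM in AdNAMPT 2 to 4 and 1341 to 1754 CPM in AdGFP. Male-biased sums were 910 to 1081 CPM in AdNAMPT 2 to 4 and 761 to 1036 CPM in AdGFP.

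Markers of other liver cells were measured beside the 10 genes. Kupffer cell markers had estimates below 0 for 8 of 8, 0 called by limma and 3 at an unadjusted p under 0.05, with a median of −0.38 and sums of 284 to 351 CPM in AdGFP and 208 to 343 CPM in AdNAMPT. The low sums were those of AdNAMPT 1 and AdNAMPT 2, at 208 and 228 CPM. AdNAMPT 3 and AdNAMPT 4, at 316 and 343 CPM, lay within the AdGFP range. For 2 of the 8 markers every AdNAMPT liver was below every AdGFP liver after TMM scaling, beside 2.7% of tested genes. Of the Kupffer cell markers Vsig4 was at −0.51 (adjusted p = 0.211 by limma, and past the threshold at 0.0393 by DESeq2 and 0.0436 by edgeR's exact test) and Timd4 at −0.83 (adjusted p = 0.326). In bulk liver, fewer cells of a type and less RNA per cell cannot be told apart. Of the 10 genes, 6 had estimates below 0 (Mt2, Tsc22d3, Tat, Sgk1, Hsd11b1 and Serpina6) and 4 had estimates above 0. When single livers were left out, signs turned for Mt2 and Sgk1, at −0.01 and −0.04, and for Lpin1 and Zbtb16, at 0.02 and 0.11. The part of cell composition in the 10 genes was not tested.

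The other cell lists gave no call by limma. Hepatocyte markers had a median of −0.10, with Cyp2e1 at −0.27 (adjusted p = 0.611) and Serpina1a at −0.29 (adjusted p = 0.624). Endothelial markers had estimates above 0 for 4 and below 0 for 4, a median of 0.02 and sums of 264 to 315 CPM in AdGFP and 283 to 323 CPM in AdNAMPT. Those of smallest p were both higher, Lyve1 at 0.34 (adjusted p = 0.700) and Pecam1 at 0.13 (adjusted p = 0.738). Stellate cell markers had 8 of 8 tested and a median of 0.05, with Rgs5 at −0.40 (adjusted p = 0.361) and Pdgfrb at 0.33 (adjusted p = 0.382). Cholangiocyte markers had 5 of 6 tested, with Cftr at 0 in at least 1 library, and Sox9 was at 0.81 (adjusted p = 0.487) and Krt19 at −0.37 (adjusted p = 0.793). Of 8 lymphocyte and neutrophil markers 2 were tested, S100a9 at 0.56 (adjusted p = 0.648) and S100a8 at 0.39 (adjusted p = 0.706). Their list summed to 4.06 to 6.72 CPM in AdGFP and 4.08 to 9.21 CPM in AdNAMPT, and Cd3e and Ms4a1 were at 0 in at least 1 library. Over all 15 lists beside the 10 genes, 190 of 206 genes were tested and limma called 0. It gave 32 of the 190 an unadjusted p under 0.05, beside 9.69% of all tested genes. The quasi-likelihood test called 0, the exact test 1 (Vsig4) and DESeq2 2 (Crp and Vsig4).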

How the data were processed

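Liver RNA of 8 mice was sequenced, 4 per group. The labels name ribosomal RNA depletion with Ribo-Zero but poly-A selection is what the study's methods name, so the library type is not settled. Per the submitters' processing notes, reads were aligned with STAR 2.4.0b to GRCm38 and assigned with featureCounts 1.4.5, and strandedness is not stated in the sources used here. The authors deposited whole-read counts per Ensembl feature, CPM (counts relative to their library's total, with no further factor) and RPKM (the deposited CPM per kilobase of exon). Counts were tested, CPM and RPKM describe levels, and log2 levels for relations were computed from TMM-scaled CPM with a prior count of 2.

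Ribosomal RNA features (355) and genes not above 1 CPM in at least 3 libraries (2 where a library is left out) were dropped, as the study's methods describe. Symbols came from GENCODE M21, which matched 40254 of 41388 features. The main test was limma 3.58.1 voomWithQualityWeights on TMM factors, with group as the only term and Benjamini-Hochberg adjustment over 12270 genes, a call being an adjusted p of at most 0.05. The sample weights ran from 0.440 (AdNAMPT 1) to 1.41. Alternatives were edgeR 4.0.16, DESeq2 1.42.0, other scalings and filters, a replicate block, a GC correction and leaving out each library (R 4.3.3). Correlations used exact permutation in Python 3.11.15 with scipy 1.17.1 and numpy 2.4.6. On deviations from group means the permutation is only approximate. The fits were tested on simulated data. Replicates differed beyond counting noise in every pair (chi-square per degree of freedom 11.3 to 81.8).

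The 10 genes and all companion lists were chosen with earlier results of these data known. Named genes were the 10, Nr3c1 and H6pd, up to 5 called genes of each companion list or, with none called, the 2 of smallest p, and the 3 genes most like Fkbp5 and most like the metallothionein sum. RefSeq promoter windows matched 8 of the 10 genes.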

Additional observations from a re-analysis of the deposited data

Results flagged for a closer look

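Within each group of 4, a value was marked where its gap to the nearest liver was past Dixon's 95% critical share of the group's range, and 28 quantities in 56 groups were tested, of which chance would mark about 2.8. Among the 10 genes, AdGFP 3 was high for Fkbp5 at 66.5 CPM (others 34.6 to 37.1), for Lpin1 at 69.7 CPM (others 31.0 to 37.0) and for Zbtb16 at 50.4 CPM (others 18.5 to 21.3). AdGFP 2 was low for Hsd11b1 at 839 CPM (others 1117 to 1134). AdNAMPT 3 was high for Zbtb16 at 45.6 CPM (others 23.9 to 26.7). AdNAMPT 1 was low for Serpina6 at 78.4 CPM (others 215 to 225) and high for the Mt1 to Mt2 count ratio at 4.31 (others 2.39 to 2.58).

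Of the companion genes and lists, the clock sum was high in AdNAMPT 3 at 1090.3 CPM (others 944 to 952) and the male-biased sum was high in AdNAMPT 1 at 3623 CPM (others 910.3 to 1081). The lymphocyte and neutrophil sum was high in AdGFP 4 at 6.72 CPM (others 4.06 to 4.37) and low in AdNAMPT 1 at 4.08 CPM (others 8.40 to 9.21). H6pd was low in AdNAMPT 2 at 334 CPM (others 382 to 387).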

How the results depend on the processing

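No setting called any of the 10 genes at an adjusted p of 0.05, and at an unadjusted p the count was 1, Tat, with all 8 livers under every setting but the one with no filter on low counts, which added Serpina6. With 1 library left out that count lay between 1 and 4, being 3 without AdGFP 2, 4 without AdGFP 3 and 2 without each AdNAMPT liver. Over all tested genes the calls went from 34 to 75 with DESeq2, 66 with edgeR's exact test and 1189 at an unadjusted p, and lay between 28 and 38 when 1 library was left out. DESeq2 called 2 companion genes where limma called 0. Scaling to library size alone put the median log2 fold change of all genes at 0.086, from 0.0015, and turned the estimates of Mt2 to 0.080 and Sgk1 to 0.048. With 1 library left out, the estimates of 4 genes crossed 0: Mt2 (−0.40 to 0.31), Sgk1 (−0.16 to 0.069), Lpin1 (−0.14 to 0.31) and Zbtb16 (−0.10 to 0.48). So did the correlations of Fkbp5 with Mt2 (−0.043 to 0.35) and with Tat (−0.26 to 0.35). The count of genes whose groups did not overlap then lay between 0 and 2, and the count of relations past the adjusted test between 0 (without AdGFP 3) and 2. The cause of these shifts was not tested. Fewer libraries also leave fewer pairings for the permutation test.

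Mouse numbers are shared between the groups, and deviations of same-numbered livers correlated at 0.23, −0.05, 0.21 and 0.01. AdGFP 1 and AdNAMPT 1 were each other's best match. AdGFP 3 was most like AdNAMPT 3, but AdNAMPT 3 was most like AdGFP 2. Livers numbered 2 and 4 had their best match under another number. These values do not settle whether the numbers pair the animals, and the main test did not pair them. A replicate block gave 41 calls over all genes and 0 of the 10, and with a GC correction 42 and 0. Counts of the 10 genes were 247 or more in every library, so the spread between livers, and not counting error, limits these comparisons. With 4 livers in each group, changes as large as the ends of the intervals given above remain possible.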
